A study of Mus musculus with 16 samples.

Results

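The major histocompatibility complex (MHC) class II antigen presentation genes were followed across mouse livers. The set holds 7 of the 78317 genes in the deposited tables: H2-Aa, H2-Ab1, H2-Eb1, H2-DMa, H2-DMb1, Cd74 and Ciita. They were listed by name, with earlier results of these data known. All 7 passed the filter on low counts, among 14781 genes tested. The study profiled poly(A) RNA from homogenised whole liver to compare a high fat diet with a normal diet in both sexes. The mice were wild-type C57BL/6J from the Jackson Laboratory, received at 6 weeks of age and kept on their diet for 10 weeks. The groups were females on normal chow (a LabDiet chow with 4.5% of its calories as fat), females on the high fat diet (D12492, with 60% as fat), males on normal chow and males on the high fat diet. Each group had 4 libraries, all labelled as 1 batch, and the labels do not state how libraries map to cages or animals, so p-values measure the spread between these libraries.

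MHC class II molecules carry peptides from endocytosed proteins to the surface of antigen-presenting cells, where CD4 T cells read them. The alpha and beta chains pair around the invariant chain (Cd74), which guides them to endosomes, and H2-DM then exchanges the last invariant chain fragment for a peptide. Transcription of the whole set depends on the coactivator Ciita, which has no DNA-binding activity of its own and is held on the promoters by RFX, CREB and NF-Y factors bound to the X and Y boxes. In liver the genes are known mainly from Kupffer cells, dendritic cells and B cells, and interferon gamma induces Ciita, in part through IRF1.

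Since Ciita acts through shared promoter elements, the promoters of 3 members and of a relative are shown. RefSeq windows of build GRCm38.p6, reaching from 250 bases before to 50 bases after the annotated start, were found for 4 of the 7 genes, H2-Aa, H2-Eb1, H2-DMa and H2-DMb1. All lie on chromosome 17. Capitals in the sequences mark the Y box core TGATTGG, the X1 box core AACTGATG and the cAMP element TGACGTCA, searched on both strands, with no overlap among the matches. The motifs were chosen after the sequences had been read, and a match is a description of the letters only.
H2-Aa, chr17:34287774-34288073, minus strand: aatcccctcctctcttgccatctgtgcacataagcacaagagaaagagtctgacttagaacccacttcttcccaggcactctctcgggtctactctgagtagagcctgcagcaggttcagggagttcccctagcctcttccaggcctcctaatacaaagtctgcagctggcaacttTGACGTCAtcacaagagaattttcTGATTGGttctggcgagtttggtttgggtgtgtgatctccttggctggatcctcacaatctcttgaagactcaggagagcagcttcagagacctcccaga
H2-Eb1, chr17:34305617-34305916, plus strand: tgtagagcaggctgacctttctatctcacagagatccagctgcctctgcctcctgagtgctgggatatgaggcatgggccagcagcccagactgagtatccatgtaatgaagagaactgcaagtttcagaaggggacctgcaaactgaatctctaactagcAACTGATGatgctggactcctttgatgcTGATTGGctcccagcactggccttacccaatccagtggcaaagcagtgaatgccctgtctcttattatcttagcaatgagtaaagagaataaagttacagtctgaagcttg
H2-DMb1, chr17:34152941-34153240, plus strand: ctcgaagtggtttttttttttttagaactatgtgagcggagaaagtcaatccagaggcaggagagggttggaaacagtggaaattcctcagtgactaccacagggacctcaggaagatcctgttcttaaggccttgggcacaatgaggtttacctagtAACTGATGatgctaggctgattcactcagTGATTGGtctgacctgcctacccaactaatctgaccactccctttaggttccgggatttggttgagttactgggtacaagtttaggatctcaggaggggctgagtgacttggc
H2-DMb2, the near-identical neighbour of H2-DMb1, chr17:34144999-34145298, plus strand: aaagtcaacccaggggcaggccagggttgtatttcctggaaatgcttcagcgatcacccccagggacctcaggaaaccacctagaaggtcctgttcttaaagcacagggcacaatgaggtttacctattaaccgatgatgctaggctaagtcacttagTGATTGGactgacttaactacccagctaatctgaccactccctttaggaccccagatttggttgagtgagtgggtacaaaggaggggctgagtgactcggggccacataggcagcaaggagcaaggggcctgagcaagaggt

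The Y box core began at -50 in H2-Aa, at -61 in H2-Eb1, at -63 in H2-DMb1 and at -92 in H2-DMb2, counted from the annotated start. It was in 7.82% of all 32851 promoter windows of this length. The X1 box core began at -89 in H2-Eb1 and at -92 in H2-DMb1, and was in 0.776% of all windows. Both cores together were in 28 windows, or 0.0852%. The cAMP element began at -74 in H2-Aa, upstream of its Y box core, and was in 1.79% of all windows. None of the 3 strings was in the windows of H2-DMa.

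Library totals ran from 22228115 to 41420589 expected counts. The largest were replicate 4 of the normal diet groups, with 41420589 counts in females and 38843167 in males. Hepatocyte markers summed to between 46200 and 86500 TPM (transcript abundance per length, scaled to the library), and none of them was at 0, as in liver. Male high fat libraries 2 and 3 were much closer to each other than any other pair within a group, with a chi-square of 4 per gene against 20.7 to 307, but still differed by more than sampling noise and were counted separately. For the genes described here, female high fat libraries 1 and 4 stood apart from the rest of their group, and the main results are given with and without them.

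Per transcript length, the members kept nearly the same order in every library. Cd74 was first and H2-Aa second in all 16, and Ciita was last in all 16. Cd74 made up 38% to 47.9% of the summed TPM of the 7 genes and H2-Aa 23.5% to 30.2%. Ciita, a regulator and not a surface protein, made up 0.0383% to 0.179%. The H2-A chain transcripts kept a narrow ratio: H2-Aa TPM was 1.75 to 2.24 times that of H2-Ab1, with a median of 2.01. H2-Eb1 TPM was 0.653 to 1.01 times that of H2-Ab1. The H2-DM chains were looser, with H2-DMa TPM at 0.654 to 2.07 times that of H2-DMb1. The summed TPM of the 7 genes was 173 ± 54.2 (SD, n = 4) in normal diet females, 523 ± 328 in high fat females, 108 ± 32.5 in normal diet males and 148 ± 22.8 in high fat males.

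By mean CPM (expected counts per library total, normalised between libraries and given on the usual CPM scale), high fat females were highest for all 7 genes. Normal diet females, high fat males and normal diet males followed in that order for 6 genes, and for Ciita high fat males came before normal diet females. The ranges of normal diet females and high fat males overlapped for all 7 genes, so these neighbours in the order lay within each other's spread. The lowest TPM was in normal diet male library 4 for 6 genes, and that of Ciita, at 0.08, was shared by this library and normal diet female library 1. The highest was in high fat female library 4 for all 7. These extremes differed 10.4-fold for Cd74 and 20.1-fold for Ciita, with the other 5 genes between them.

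**Figure D1:**
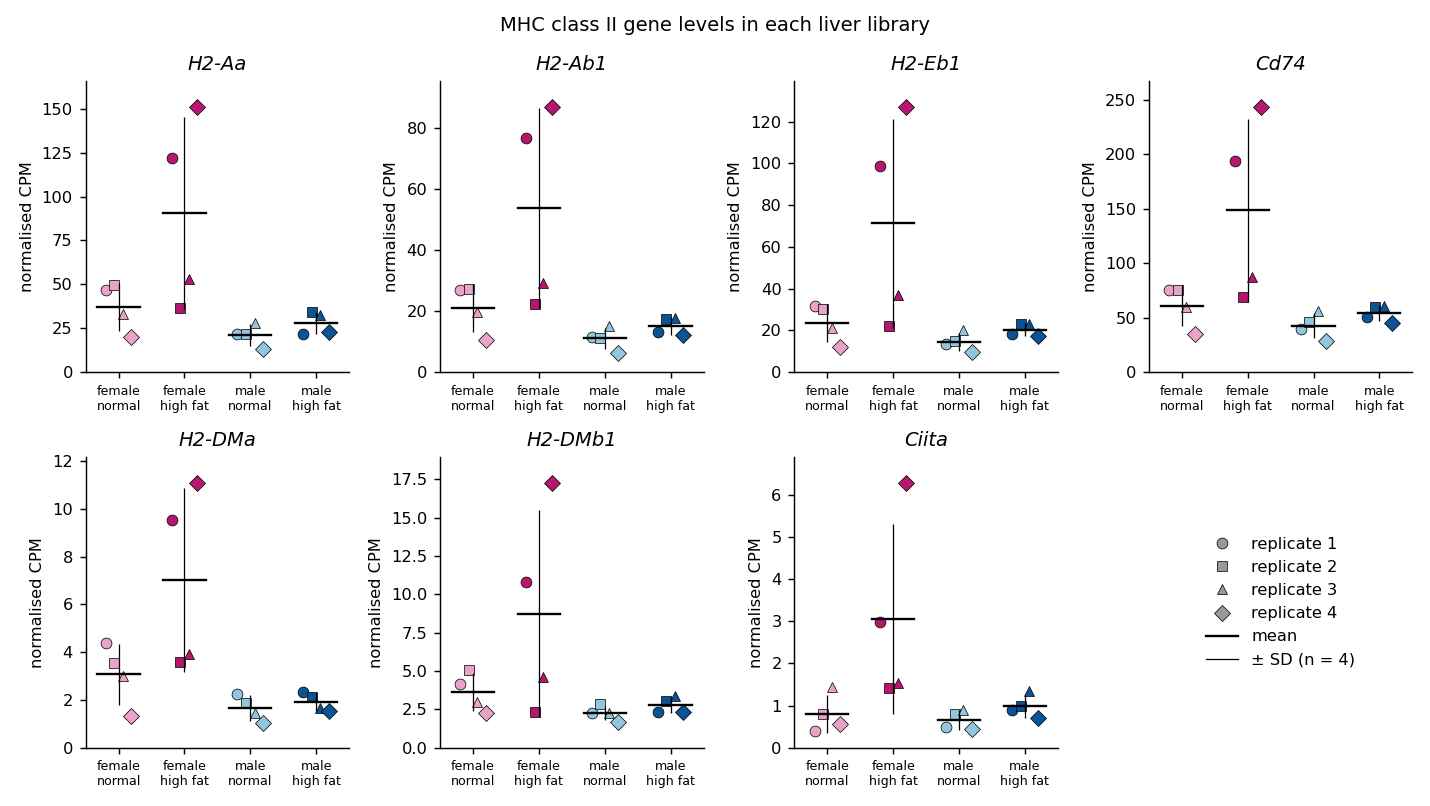
Normalised CPM (vertical axes, from 0) of the 7 MHC class II genes in each liver library, by sex and diet; symbols give the replicate, the wide line the mean and the thin line ± SD of 4 libraries. High fat female libraries 1 and 4 lie above the other 14 libraries for every gene, such as 194 and 244 CPM for Cd74.

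On the high fat diet, females had higher levels of 4 of the 7 genes than females on normal chow, namely Ciita, Cd74, H2-Eb1 and H2-DMa. Estimates for all 7 were upward, from 1.21 to 1.94 on the log2 scale, with a median of 1.29 against 0 for all genes tested. In edgeR's quasi-likelihood test, 5.74% of all genes tested were called higher in this comparison, at an adjusted p under 0.05 over the 14781 genes. An unadjusted edgeR p under 0.05 was reached by 7 of 7. At least 1700 of the 14781 genes reached it too, since 1700 passed the adjusted threshold in either direction, and the exact share was not counted. By CPM, the groups overlapped for all 7 genes, whereas 8.71% of all genes had every high fat female library above every normal diet one. By TPM, every high fat female library was above every normal diet one for H2-Ab1, H2-DMa, Cd74 and Ciita. The lowest high fat and highest normal diet values were 32.95 and 31.76, 5.85 and 5.75, 94.14 and 82.87, and 0.34 and 0.3 TPM. H2-Aa, H2-Eb1 and H2-DMb1 overlapped by TPM as well, and the TPM share of all genes was not computed. In whole tissue, fewer or more cells of a type and less or more RNA per cell cannot be told apart.

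Among the genes of the displayed molecules, H2-Aa, the alpha chain of H2-A, had 46.6, 49.5, 32.9 and 19.8 CPM in normal diet female libraries 1 to 4, and 122, 36.4, 53.1 and 151 CPM in the high fat ones. High fat libraries 1 and 4 were far above the rest, while library 2 lay inside the normal diet range. The log2 fold change was 1.29 ± 0.43 (SE), 2.44-fold, with an edgeR adjusted p of 0.0669, which missed the threshold. Its partner H2-Ab1, the beta chain, had 26.9, 27.2, 19.7 and 10.6 CPM on normal chow and 76.9, 22.5, 29.1 and 87 CPM on the high fat diet. The libraries fell in the same pattern, with library 2 again inside the normal diet range. The H2-Ab1 log2 fold change was 1.36 ± 0.43 (edgeR adjusted p = 0.0597).

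H2-Eb1, the beta chain of H2-E, had 31.5, 30, 21 and 12 CPM in normal diet females and 99, 22, 36.9 and 127 CPM in high fat females. Here 3 of 4 high fat libraries exceeded every normal diet library, and library 2 did not. The log2 fold change was 1.59 ± 0.48, 3.01-fold, with an edgeR adjusted p of 0.0479. The C57BL/6 haplotype makes no H2-Ea, the alpha chain that would pair with it. H2-Ea had 0 of 471199515 counts over the 16 libraries, which allows up to 0.00637 CPM by counting error alone, so H2-Eb1 was measured as RNA without its partner.

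The invariant chain gene Cd74 was the most abundant member. It had 75, 75.2, 59.6 and 34.7 CPM in normal diet females and 194, 68.6, 87.8 and 244 CPM in high fat females. High fat libraries 1, 3 and 4 lay above the normal diet range. Cd74 was called higher, with a log2 fold change of 1.28 ± 0.37, 2.43-fold (edgeR adjusted p = 0.0389).

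The H2-DM chains, which load peptides in endosomes, were expressed at lower levels. H2-DMa had 4.37, 3.56, 3 and 1.34 CPM in normal diet females and 9.52, 3.57, 3.93 and 11.1 CPM in high fat females. Libraries 2 and 3 of the high fat group lay within the normal diet range, and libraries 1 and 4 lay above it. H2-DMa was called at 1.21 ± 0.38 on the log2 scale, 2.31-fold, with an edgeR adjusted p of 0.0494 that sat just inside the threshold. H2-DMb1 had 4.19, 5.06, 3 and 2.28 CPM on normal chow and 10.8, 2.32, 4.6 and 17.3 CPM on the high fat diet. Its log2 fold change of 1.27 ± 0.45 missed the threshold (edgeR adjusted p = 0.0808). Reads of H2-DMb1 and H2-DMb2 can be divided between these near-identical genes by the estimator, and H2-DMa shares exonic sequence with Brd2 on the other strand. Brd2 itself had a log2 fold change of -0.16 ± 0.1 in this comparison (edgeR adjusted p = 0.283).

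Ciita, the coactivator, showed the highest fold of the 7. It had 0.408, 0.797, 1.43 and 0.557 CPM in normal diet females and 2.99, 1.42, 1.53 and 6.28 CPM in high fat females. The high fat libraries 1, 3 and 4 were above all normal diet libraries, and library 2 lay just under the highest of them. The log2 fold change was 1.94 ± 0.46, 3.83-fold, with an edgeR adjusted p of 0.0117. Its depth was low, with 11 to 39 counts per library in normal diet females and 41 to 160 in high fat females. Ciita overlaps Dexi on the opposite strand, and the counting is not stated to use strand; Dexi had a log2 fold change of 0.43 ± 0.18 (edgeR adjusted p = 0.131).

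The calls turned on single libraries. With high fat female library 4 left out, no member was called, with 6 of 7 at an unadjusted p under 0.05, and the Ciita estimate was 1.32 (edgeR adjusted p = 0.0628). With library 1 left out, Ciita alone was called, at 1.95 (edgeR adjusted p = 0.0248). With both left out, an alternative chosen after seeing the data, no member was called and none had an unadjusted p under 0.05, while 2.96% of 15429 genes were called in either direction. Estimates were then 0.27 for H2-Aa, 0.29 for H2-Ab1, 0.32 for H2-Eb1, 0.36 for Cd74, 0.3 for H2-DMa, -0.07 for H2-DMb1 and 0.9 for Ciita. All 7 were called without high fat female library 2, or without library 3. Leaving out normal diet female libraries also moved the count, to 2 without library 1 and to 1 without library 2, 3 or 4. H2-Eb1 and H2-DMa also missed the threshold when any 1 male library, not part of this contrast, was left out. Ciita stayed called in each of those fits. DESeq2 called 7 of 7, and the edgeR fit with the replicate number as a block called 1, Ciita. The 5.74% of all genes called higher holds for the main edgeR fit only. Apart from the fit without both libraries, shares of all genes under the other fits are not given here. Their member counts therefore have no such background beside them, and neither do the counts at an unadjusted p.

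**Figure D2:**
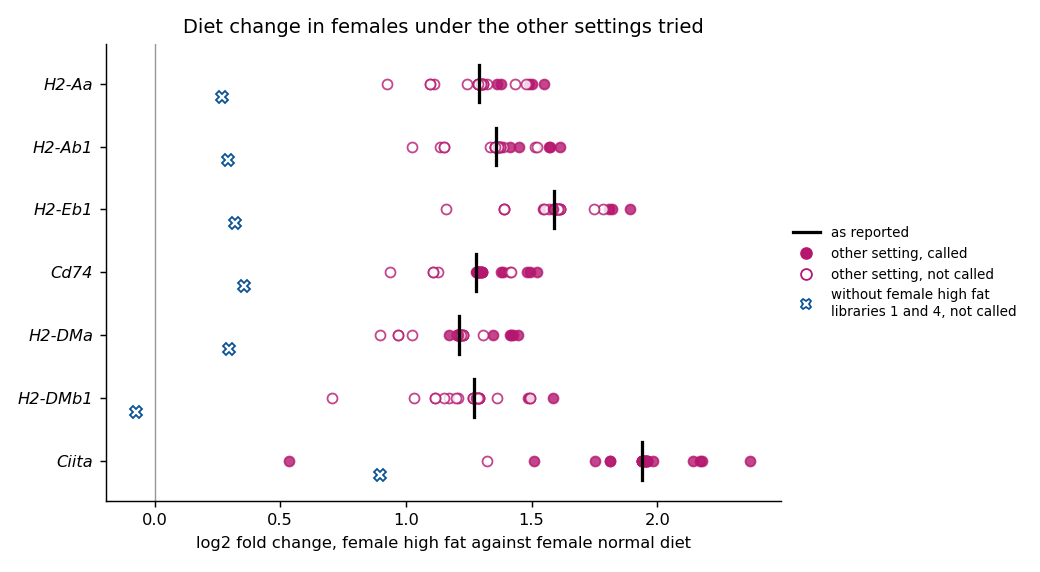
Log2 fold change of each MHC class II gene between high fat and normal diet females under the other settings tried; the black bar is the value as reported, filled points were called at an adjusted p under 0.05 and crosses leave out high fat female libraries 1 and 4. The crosses lie between -0.07 (H2-DMb1) and 0.9 (Ciita), and all are open; the filled Ciita point at 0.54 is on the log2(TPM + 1) scale, which understates low genes.

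In males, no member was called between the diets by edgeR, and 0 of 7 had an unadjusted p under 0.05, while 11.4% of all genes were called in either direction. DESeq2 also called 0. Estimates were all upward but small, from 0.23 for H2-DMa to 0.59 for Ciita, with a median of 0.4 against 0.01 for all genes. H2-Aa had 21.5, 21.9, 28.1 and 12.9 CPM in normal diet males and 21.7, 34.2, 32.3 and 22.9 CPM in high fat males, and the groups overlapped. Cd74 had 39.9, 46.3, 55.7 and 28.9 CPM on normal chow and 51, 59.4, 60.6 and 45.4 CPM on the high fat diet, again overlapping. The Cd74 log2 fold change was 0.34 ± 0.37, with a 95% interval from -0.44 to 1.13. That interval includes changes larger than 2-fold, so these 8 libraries cannot tell a rise of that size in males from no change. Ciita had 0.494, 0.799, 0.907 and 0.433 CPM in normal diet males and 0.892, 0.984, 1.34 and 0.708 CPM in high fat males. Its interval ran from -0.43 to 1.61.

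The remaining members overlapped between the diets in males as well. H2-Ab1 ranged from 6.33 to 15 CPM on normal chow and from 12 to 17.9 CPM on the high fat diet, H2-Eb1 from 9.66 to 20 and from 17.3 to 23. H2-DMa ranged from 1.03 to 2.26 and from 1.55 to 2.34 CPM, and H2-DMb1 from 1.71 to 2.85 and from 2.34 to 3.4.

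The diet change was not shown to differ between the sexes. The interaction estimate, the change in females minus that in males, was positive for all 7 genes, from 0.89 for H2-Aa to 1.35 for Ciita on the log2 scale. No member was called by edgeR (adjusted p from 0.404 to 0.589), 0 of 7 had an unadjusted p under 0.05, and DESeq2 called 0. In all, 0.677% of genes tested were called. For Ciita the interval ran from -0.05 to 2.75, and for Cd74 from -0.17 to 2.05. The estimates of H2-Aa, H2-Ab1, H2-Eb1 and H2-DMb1 were below 0 without high fat female libraries 1 and 4.

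**Figure D3:**
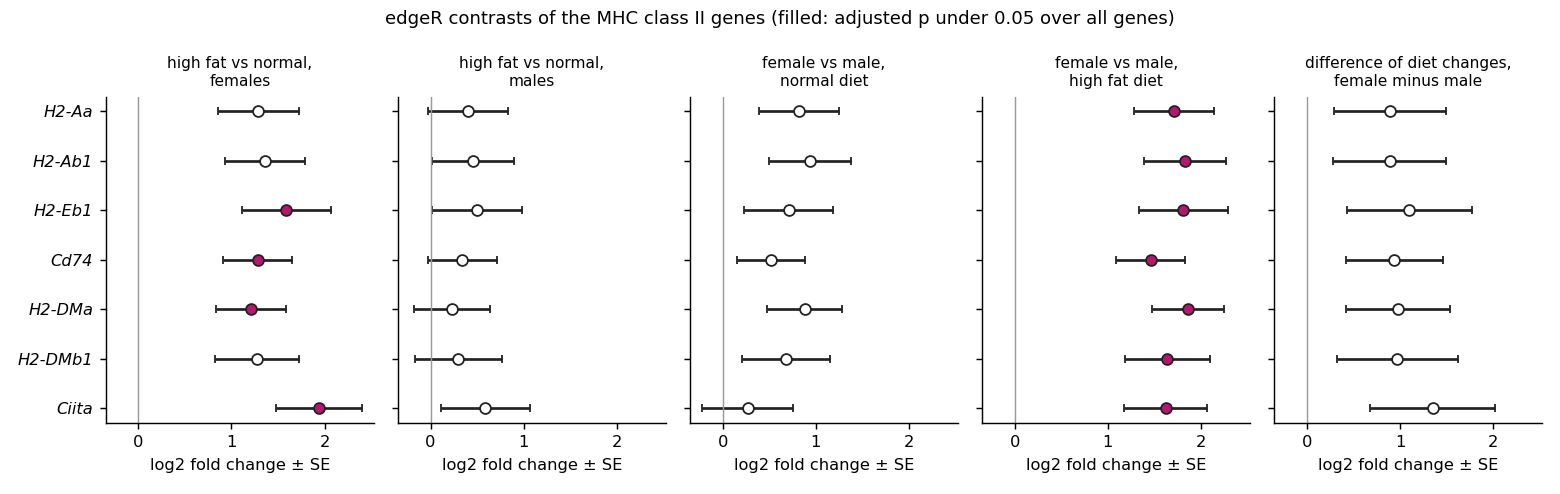
Log2 fold changes ± SE (horizontal axes) of the 7 MHC class II genes in the 5 contrasts of 16 libraries, filled where the edgeR adjusted p was under 0.05. The filled points are 4 in the diet contrast of females and 7 in the contrast of the sexes on the high fat diet.

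On normal chow, no member was called between females and males, while 15.7% of all genes were called in either direction. DESeq2 also called 0. H2-DMa alone had an unadjusted p under 0.05, with a log2 fold change of 0.88 ± 0.4 and an edgeR adjusted p of 0.144. For 6 genes, 3 of 4 female libraries were above every male library, and female library 4 was not. The groups overlapped for all 7 genes, against 9.86% of all genes with every female library above every male one.

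On the high fat diet, all 7 members were higher in females than in males, with 8.84% of all genes called higher. Log2 fold changes ran from 1.46 ± 0.37 for Cd74 (edgeR adjusted p = 0.0144) to 1.86 ± 0.39 for H2-DMa (edgeR adjusted p = 0.00391). The median was 1.71, against -0.01 for all genes. For H2-Aa, H2-Ab1, H2-DMa, Cd74 and Ciita every female library was above every male library, an arrangement found for 10.3% of all genes. By CPM, H2-Eb1 and H2-DMb1 overlapped, since female library 2, with 22 CPM of H2-Eb1 and 2.32 CPM of H2-DMb1, lay inside or below the male range. By TPM, which are not scaled between libraries, H2-Eb1 did not overlap, with a lowest female value of 21.5 and a highest male value of 19.5. Without high fat female libraries 1 and 4 no member was called, 1 had an unadjusted p under 0.05, and estimates ran from 0.31 for H2-DMb1 to 0.97 for H2-DMa. Without female library 4, or without male library 4, 4 members were called, H2-Aa, H2-Ab1, H2-DMa and Cd74.

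The relatives of the members were mostly near the detection limit. Of 5 listed relatives, 2 were tested and 0 were called by edgeR in either diet contrast; DESeq2 called H2-DMb2 in females. H2-DMb2 averaged 0.347 ± 0.259 CPM (SD, n = 4) in normal diet females and 0.943 ± 0.347 in high fat females, a log2 fold change of 1.44 ± 0.48 (edgeR adjusted p = 0.0597). H2-Ob, a chain of the H2-DM inhibitor H2-O, averaged 0.552 ± 0.145 and 1.03 ± 0.353 CPM, with an edgeR adjusted p of 0.171. H2-Oa, its partner chain, had 0 to 16 counts per library and H2-Eb2 had 0 to 17, and neither passed the filter.

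Among factors that bind the MHC class II promoters, 2 of 7 were called higher in high fat females and 0 in high fat males. Of all genes tested, 5.74% were called higher in high fat females. Rfx5, the DNA-binding subunit of RFX, had 5.82, 5.15, 5.64 and 6.46 CPM in normal diet females and 12.6, 9.86, 11.7 and 14.6 CPM in high fat females. The groups did not overlap, and libraries 2 and 3 were above the normal diet range too. The Rfx5 log2 fold change was 1.08 ± 0.15 (edgeR adjusted p = 0.000264), and 0.9 without libraries 1 and 4 (edgeR adjusted p = 0.00696). Nfyb, a subunit of the Y box factor NF-Y, had 30.8, 27.4, 31.6 and 32.8 CPM against 37.5, 48.6, 44.9 and 41.6 CPM. Its log2 fold change was 0.49 ± 0.09 (edgeR adjusted p = 0.0027), and its highest libraries were 2 and 3, where the members were lowest. Interaction tests of Rfx5 and Nfyb missed the threshold in edgeR (adjusted p = 0.0524 and 0.0579) and passed it in DESeq2 (adjusted p = 0.00598 and 0.00337) and in edgeR with library totals (adjusted p = 0.0385 and 0.0198). Between settings, the interaction estimate of Rfx5 ran from 0.76 to 1.04 and that of Nfyb from 0.5 to 0.69. Nfyb also passed it without high fat female libraries 1 and 4 (edgeR adjusted p = 0.0242), where Rfx5 did not (edgeR adjusted p = 0.199). Rfx5 shares sequence with an antisense gene.

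On the path from interferon gamma to Ciita, Irf1 was called higher in high fat females. Irf1, which acts on a Ciita promoter, had 19.5, 19, 17.9 and 14.1 CPM in normal diet females and 57.1, 28.1, 38.1 and 64.1 CPM in high fat females. Libraries 1 and 4 were highest here too, but libraries 2 and 3 were also above every normal diet library. Its log2 fold change was 1.41 ± 0.19 (edgeR adjusted p = 0.000225), and 0.91 without libraries 1 and 4 (edgeR adjusted p = 0.00228). In males Irf1 changed by -0.07 ± 0.19, and its diet change differed between the sexes by 1.49 ± 0.27 (edgeR adjusted p = 0.0142). Irf1 overlaps another annotated gene on the opposite strand. Ifng itself had 0 to 13 counts per library and was not tested.

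In the endosomal processing list, edgeR called 1 of 9 genes in high fat females, where it called 5.74% of all genes tested higher. DESeq2 called 3 of the list (Ctss, Ctsb and Ifi30). The edgeR call was Ifi30, the thiol reductase that unfolds antigens, at 1.01 ± 0.27 (edgeR adjusted p = 0.021). Ctss, the protease that trims the invariant chain, averaged 45.5 ± 8.78 CPM in normal diet females and 78 ± 25.3 in high fat females, with an edgeR adjusted p of 0.0524. Of the CD4 T cell partners, 7 of 9 were tested and 2 were called higher in high fat females. These were the costimulatory genes Cd86, at 0.68 ± 0.2 (edgeR adjusted p = 0.0358), and Cd40, at 1.56 ± 0.48 (edgeR adjusted p = 0.045). Without high fat female libraries 1 and 4 none of these 3 was called; the estimate of Ifi30 was 0.47, while those of Cd86 and Cd40 were 0.54 and 1.26, closer to the values with all libraries. In males 0 genes of either list were called.

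The MHC class I list, the counterpart for cytosolic peptides, had 4 of 9 genes called higher in high fat females. The share of all genes tested was 5.74%. In high fat males edgeR called 0, with Tap1 at 0.94 ± 0.3 (edgeR adjusted p = 0.0548) and Psmb9 at 1.04 ± 0.41 (edgeR adjusted p = 0.114), while DESeq2 called both (adjusted p = 0.0108 and 0.0267). The male call of Tap1 also passed in edgeR with library totals (adjusted p = 0.0462), and those of Tap1, Tap2 and Psmb9 when high fat female libraries 1 and 4 were left out of the shared fit (edgeR adjusted p = 0.000292, 0.0409 and 0.00212). Their interaction tests were not called. In females, the peptide transporter gene Tap1 had a log2 fold change of 1.89 ± 0.3 (edgeR adjusted p = 0.0013), and that of Tap2 was 1.03 ± 0.24 (edgeR adjusted p = 0.0112). Psmb9, an immunoproteasome subunit, had 1.77 ± 0.39 (edgeR adjusted p = 0.0116). Nlrc5, the class I counterpart of Ciita, was at 0.65 ± 0.18 (edgeR adjusted p = 0.0292). The class I chains H2-K1 and H2-D1 and B2m were not called. Tap1 was still called without high fat female libraries 1 and 4, at 1 (edgeR adjusted p = 0.00228), and the other 3 were not. The summed TPM of the class II members was 0.122, 0.0447, 0.056 and 0.115 times that of the class I list in high fat female libraries 1 to 4, and 0.0476, 0.0473, 0.0393 and 0.0259 times in normal diet females. Libraries 1 and 4 were far above the normal diet ratios, library 3 was slightly above them and library 2 was within them. Psmb9 and Tap1 overlap on opposite strands.

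Markers of the cells that carry MHC class II moved with the members in part. By edgeR, 5.74% of all genes tested were called higher in high fat females. Of the markers, 3 of 4 for leukocytes and 0 of 6 tested for B cells were called higher there. So were 1 of 7 dendritic cell markers (Itgax), 1 of 7 Kupffer cell markers (Cd5l) and 5 of 7 markers of recruited macrophages. DESeq2 called 4, 1, 1, 5 and 5 of these lists' markers. Without high fat female libraries 1 and 4, edgeR called 1 leukocyte marker and 0 in the other 4 lists, with median log2 fold changes of 0.52 for leukocytes, 0.49 for B cells, 0.47 for dendritic cells, 0.46 for Kupffer cells and 0.93 for recruited macrophages. The lists hold none of the 7 members. Leukocyte markers summed to 42.1, 35, 32.4 and 54 TPM in high fat female libraries 1 to 4, against 14.6 to 22.2 TPM in normal diet females. All 4 high fat libraries were above the normal diet range, libraries 2 and 3 included. These sums are TPM, which are not scaled between libraries and ran higher relative to CPM in high fat than in normal diet females. B cell markers, none of them at 0 in a whole group, summed to 4.45, 3.82, 3.41 and 7.76 TPM against 1.46 to 2.76 TPM, and dendritic cell markers to 6.35, 3.56, 4.32 and 7.68 TPM against 2.22 to 3.28 TPM. Kupffer cell markers summed to 495, 462, 375 and 582 TPM against 202 to 292 TPM. In males, 891 of the 14781 genes tested were called higher. Of the markers of recruited macrophages, 5 of 7 were also called higher there, with sums of 9.06 to 16.2 TPM against 2.31 to 3.92 TPM. No member was called. In high fat females these markers summed to 22.7, 6.35, 4.78 and 19.7 TPM, and libraries 1 and 4 were again highest.

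Relative to leukocyte markers, the summed member TPM was 16.5, 6.18, 8.74 and 16.6 times as high in high fat female libraries 1 to 4. The same ratio was 9.79, 9.53, 8.62 and 6.53 in normal diet females. Libraries 1 and 4 were above the normal diet range by this measure also, and libraries 2 and 3 were not. Relative to dendritic cell markers the ratios were 110, 60.8, 65.6 and 117, against 38 to 95.2. For B cell markers they were 156, 56.6, 83.1 and 116, against 65.4 to 111, so library 4 was only slightly above that range. For Kupffer cell markers they were 1.41, 0.468, 0.756 and 1.54, against 0.473 to 0.787. Library 2 lay below the normal diet range in the B cell ratio and just below it in the Kupffer cell ratio. Relative to markers of recruited macrophages the order was different: the ratios were 30.7, 34.1, 59.3 and 45.6 in high fat females, against 42.8 to 101 in normal diet females, with libraries 1 and 2 below that range. In the comparison of the sexes on the high fat diet, 6 of 7 Kupffer cell markers and 3 of 4 leukocyte markers were higher in females too. Without high fat female libraries 1 and 4, 1 and 0 of them were. With all libraries, 8.84% of all genes tested were called higher in that comparison. The part that cell numbers have in the member levels was not tested.

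**Figure D4:**
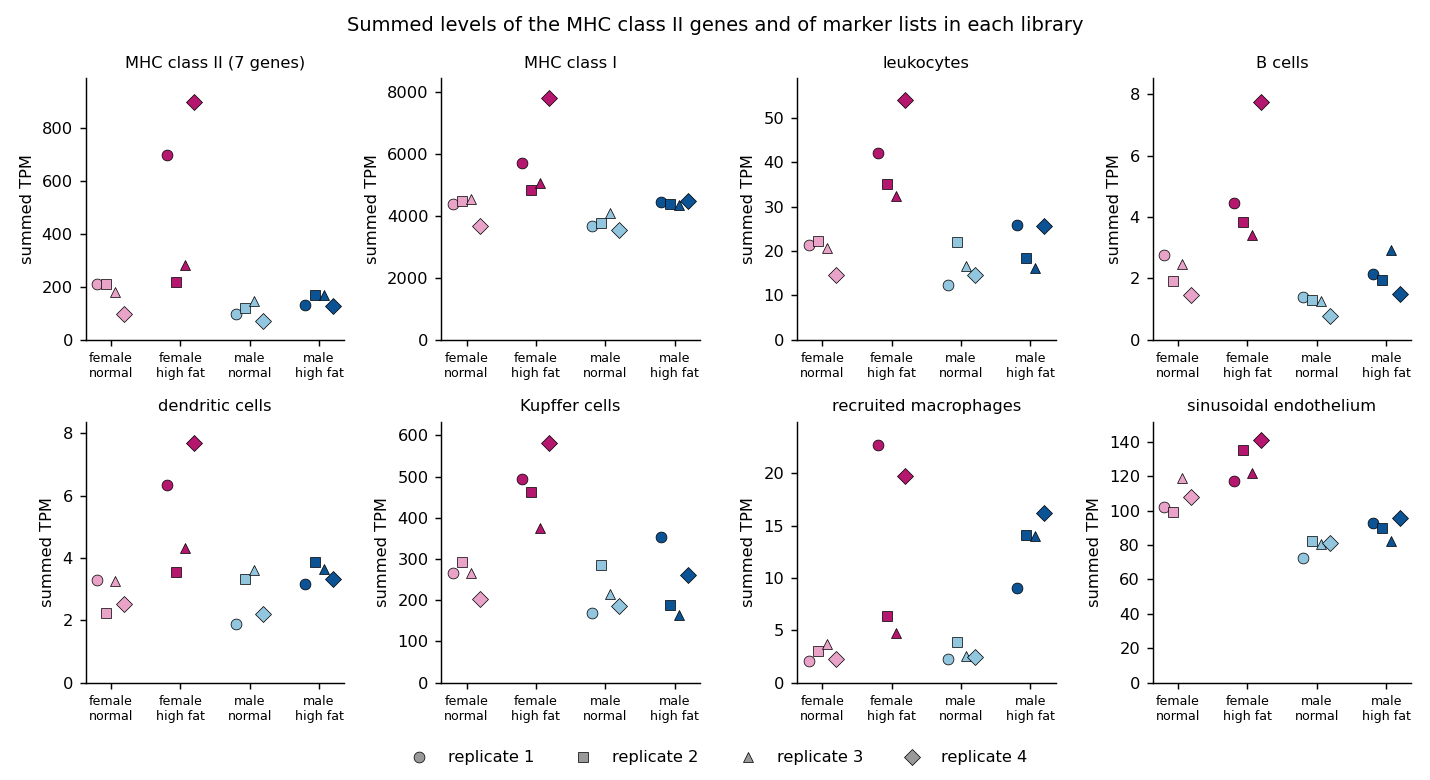
Summed TPM (vertical axes, from 0) of the 7 MHC class II genes, the MHC class I list and 6 marker lists in each library, by sex and diet; symbols give the replicate. High fat female libraries 2 and 3 lie above normal diet females for leukocyte markers (35 and 32.4 TPM against at most 22.2). Their MHC class II sums of 216 and 283 TPM also lie above the normal diet female maximum of 211, that of library 2 only slightly. TPM are not scaled between libraries.

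The members varied together across libraries. Over the 16 libraries, Pearson's r of log2 CPM in the 21 pairs of members ran from 0.754 (H2-DMa with Ciita) to 0.996 (H2-Aa with H2-Ab1), with a median of 0.945. With group means subtracted the range was 0.502 to 0.991 and the median 0.887, and the lowest and highest pairs were the same. Without high fat female libraries 1 and 4 the medians were 0.845 and 0.78 over 14 libraries, and the lowest pair with group means subtracted was at 0.0764. These values describe libraries that share depth and scaling between genes, and no test was made of them.

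The genes most like the members, by Pearson's r with their mean standardised log2 CPM among 10643 genes ranked, were Gbp4 (r = 0.977), Tgtp2, Gbp2, Serpina3f, Gbp5, Serpina3g, H2-Q6, Cxcl9, H2-M3 and Tgtp1 (r = 0.95) over 16 libraries. Guanylate-binding proteins (Gbp) and the T cell specific GTPases (Tgtp) are known as interferon-inducible GTPases, Cxcl9 as an interferon gamma induced chemokine, and H2-Q6 and H2-M3 as MHC class I genes. With group means subtracted, H2-Q6 (r = 0.956), Tgtp2, Gbp2, Gbp4, Irf1 (r = 0.943), Serpina3f, AW112010, Krt8, Tgtp1 and Gbp5 (r = 0.909) came first. Irf1 ranked 22 as measured. Without high fat female libraries 1 and 4, r as measured was 0.91 for Gbp4, 0.912 for Gbp2, 0.933 for Cxcl9 and 0.707 for Irf1 over 14 libraries. With group means subtracted, the values without them were 0.84 for Irf1, 0.877 for H2-Q6 and 0.816 for Krt8. The marker genes were further down: as measured, Ptprc had r = 0.753, the B cell gene Cd79b 0.809, the dendritic cell gene Flt3 0.751 and the Kupffer cell gene Clec4f 0.693. Cd79a of the B cell list had 0.64, Itgax of the dendritic cell list 0.692 and Ccr2 of the recruited macrophage list 0.587. With group means subtracted, these marker genes ran from 0.131 for Clec4f to 0.677 for Itgax, with Ptprc at 0.321. Gbp, Tgtp, H2-Q and Serpina3 genes have near-identical relatives among which reads may be divided.

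The promoter factors were not among the genes most like the members. As measured, Rfx5 had r = 0.636 and Nfyb 0.373, and with group means subtracted 0.207 and -0.616. Some others ran opposite to the members: as measured, Creb1 had r = -0.802, Rfxap -0.744 and Nfyc -0.621. Rfxank, at -0.143, and Nfya, at 0.326, had weaker values. In the diet contrast of females Gbp4 had a log2 fold change of 1.39 ± 0.36 (edgeR adjusted p = 0.0227) and Gbp2 of 1.97 ± 0.46 (edgeR adjusted p = 0.0157). Neither was called without libraries 1 and 4, at 0.45 and 0.75 (edgeR adjusted p = 0.444 and 0.207). In males those of Gbp4 and Gbp2 were 0.19 ± 0.38 and 1.03 ± 0.47, and neither was called.

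**Figure D5:**
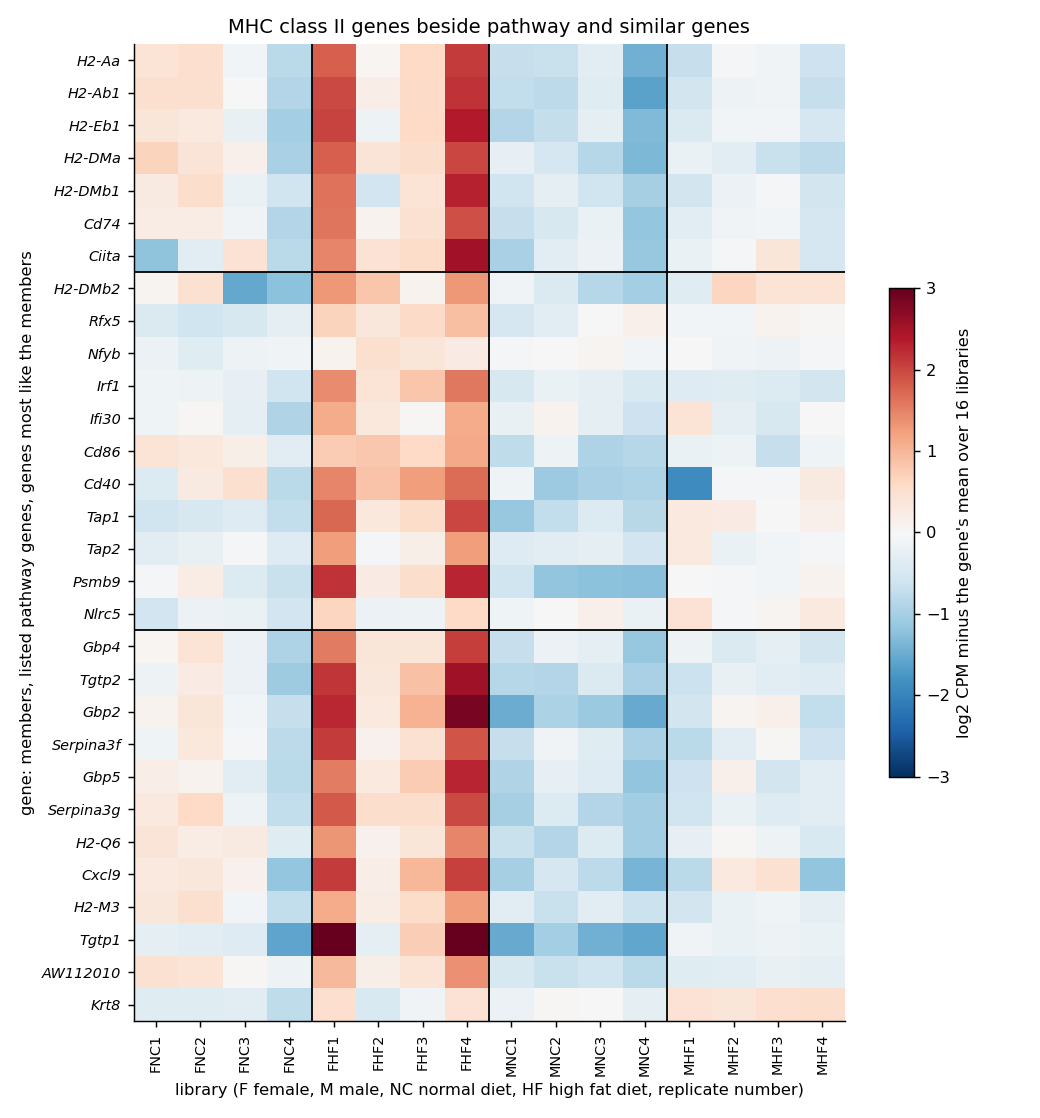
Log2 CPM minus the mean of each gene over 16 libraries (colour, saturating at the ends of the scale, as for Tgtp1) for the 7 members, listed pathway genes named above and the genes most like the members, separated by horizontal lines; columns are libraries by sex (F, M), diet (NC normal, HF high fat) and replicate. High fat female libraries 1 and 4 are the darkest columns for the members and for Irf1, Gbp2 and Tgtp2, while Rfx5 and Nfyb are raised in all 4 high fat female libraries.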

How the data were processed

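The series deposited RSEM gene tables of 16 liver libraries. The authors' tables hold expected counts (estimated counts per gene, not normalised; 4.89% of entries are not whole) and TPM, normalised by the authors per transcript length and library. STAR, RSEM and build GRCm39 are named in the submitters' processing notes; versions, annotation and strand setting are not given in the sources used here. Groups follow the labels' titles. Counts were rounded, filtered (filterByExpr), scaled by TMM and fitted in edgeR 4.0.16 (R 4.3.3; robust quasi-likelihood, 16 libraries, 1 mean per group); 5 contrasts were tested, two-sided, with Benjamini-Hochberg adjustment over the 14781 genes and a threshold of 0.05. CPM are TMM-scaled. The fit was checked on simulated data. Alternatives were DESeq2 1.42.0, limma 3.58.1 on log2(TPM + 1) and log2(TPM + 0.1), other scalings, no filter, fewer groups, a replicate block, each library left out, and near-identical copies summed. Symbols came from a name table by gene ID (51487 of 78317 IDs, 98.97% of counts).

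The members and lists were chosen with earlier results of these data known. Named were all 7 members, set relatives and regulators (H2-DMb2, H2-Oa, H2-Ob, H2-Eb2, H2-Ea, Rfx5, Ifng, Irf1, Ctss), listed genes called in either diet contrast or the interaction (at most 3 per list and contrast by p), and the 10 genes with the highest r to the members, at a mean log2 CPM of at least 1. The MHC class I gene Nlrc5, the class I chains, Brd2 and Dexi were named after their values were seen. So were Creb1, Rfxap, Nfyc, Rfxank, Nfya and the marker genes given an r. Marker lists of T cells, neutrophils, endothelium, stellate cells, cholangiocytes and hepatocytes had 0 of 5, 2 of 3, 0 of 6, 1 of 5, 0 of 5 and 0 of 6 tested genes called higher in high fat females. The share of all genes tested was 5.74%. The gene models used to find overlaps (GENCODE M21) are of an older build than the files, so no coordinates from them are given. One gene of the fixed lists is not reported here. The floor of 3 counts cover counting error only.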

Additional observations from a re-analysis of the deposited data

Results flagged for a closer look

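The diet change of Irf1 differed between the sexes, with a log2 difference of 1.49, female minus male (edgeR adjusted p = 0.0142). Of the listed pathway genes named, Rfx5 and Nfyb passed the interaction test in DESeq2 and in edgeR with library totals, but not in the main edgeR fit. Among 84 groups of 4 libraries examined, for 21 named genes, 5 had a library set apart by more than Dixon's critical value of 0.829, and chance alone gives about 1 in 20 groups. None of these 5 was a member gene. H2-Ob had 0.951 CPM in high fat male library 2, against 0.223 to 0.31 in the other 3. Cd86 had 4.57 CPM in normal diet male library 2, against 2.68 to 2.96, and 3.13 CPM in high fat male library 3, against 4.46 to 4.65. In normal diet male library 1, Cd40 had 0.288 CPM, against 0.114 to 0.135, and Psmb9 had 6.71 CPM, against 4.2 to 4.45.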

How the results depend on the processing

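Of 973 log2 fold changes of single members under other settings, 877 kept their direction and their side of the threshold, 16 passed it only there, 74 no longer passed it and 6 changed sign. This total includes contrasts where no member was called under any setting. In the diet contrast of females, H2-Eb1 and H2-DMa no longer passed in 20 of 28 other settings each, Cd74 in 12 and Ciita in 2. H2-Aa and H2-Ab1 passed only in 6 of the 28 and H2-DMb1 only in 4. In the diet contrast of females, where 4 members were called, DESeq2 and edgeR with library totals called 7, a fit without a filter on low counts 1, a fit of the compared groups alone 1, averaging high fat male libraries 2 and 3 gave 2, and leaving out replicate 4 of both normal diet groups (chosen after seeing the data) 1. Library totals moved the median of all genes to 0.192 on the log2 scale, so its estimates stand relative to that shift. Leaving out 1 library gave 0 to 7 members in that contrast and 4 to 7 in the contrast of the sexes on the high fat diet. Without both high fat female libraries 1 and 4 (also chosen after seeing the data) each of these counts was 0. H2-DMb1 then changed by -0.07 with diet in females, and the interaction estimates were -0.13 for H2-Aa, -0.17 for H2-Ab1, -0.18 for H2-Eb1 and -0.37 for H2-DMb1. Between the sexes on normal chow, Ciita ran from -0.14 (without normal diet female library 3) to 0.49 when 1 library was left out. The counts in males, in the interaction and between the sexes on normal chow were 0 under every alternative run, DESeq2 included. Shares of all genes called under the alternatives, the replicate block included, are not given, apart from the fit without high fat female libraries 1 and 4. The other member counts therefore have no such background beside them.

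The replicate block left 1 member called, Ciita, with diet in females and 6 between the sexes on the high fat diet. Deviations of same-numbered libraries had r from -0.159 to 0.18 (24 pairs, median 0.044), against -0.272 to 0.187 (72 pairs, median -0.018) for other-numbered ones. Since these ranges overlap and the labels do not map libraries to animals, whether the numbers pair the libraries cannot be decided here. Ciita, with 11 to 160 counts per library, is the member whose precision depth limits most.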
